A study of Mus musculus with 19 samples.

Results

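The cytosolic ribosomal protein genes of OT-I CD8 T cells were represented by 88 of the 12422 probe sets that remained on the array after control probe sets were left out. OT-I cells are CD8 T cells from a mouse strain with a transgenic receptor specific for an ovalbumin peptide. Their mRNA was measured with Affymetrix oligonucleotide arrays, which give 1 signal intensity per probe set. A probe set was taken when the platform annotation gave it a symbol of Rpl or Rps followed by a digit, of Rplp0 to Rplp2 or of Rpsa, with the S6 kinase genes (Rps6k) left out. No measured value entered this choice. The 88 probe sets named 65 genes or gene pairs, with 66 of the 8949 gene symbols on the array. The annotation gave 49 of them exactly 1 symbol and 39 several, mostly processed pseudogenes of the same ribosomal protein, and the signal of those 39 cannot be assigned to 1 transcript.

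The samples were OT-I cells transferred into irradiated B6 mice and sorted at day 5 (n = 8), day 40 (n = 4) or day 115 (n = 3), and OT-I cells transferred into unirradiated B6 mice (n = 4), all from lymph node or spleen. The sample titles give day 5 for the first group, while the descriptions give day 6 as the day of sorting, which is also the day given for the unirradiated hosts. For day-5 arrays 1 and 2 the cell type is not named in the description. Unirradiated hosts were not sampled at day 40 or day 115, so at those days the host and the time after transfer cannot be told apart. The labels do not say which samples came from separate mice, so p-values measure the spread between these samples, which may be technical.

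Cytosolic ribosomes consist of a small and a large subunit, each built from ribosomal RNA and ribosomal proteins, and a cell that grows or divides has to make both subunits in matched amounts. Most ribosomal protein mRNAs begin with a C followed by a run of pyrimidines, the 5′ terminal oligopyrimidine (TOP) motif, through which the kinase mTOR and the RNA-binding protein Larp1 control mostly how well these mRNAs are translated and less how many of them there are. T cells that leave quiescence raise ribosome production, and memory T cells return to a low rate of growth. The arrays measured mRNA, and translation was not measured.

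The bases around the annotated start of 8 member genes are shown because the TOP motif is the sequence feature by which these genes are known. Each line has 15 bases before the start and 15 from it, taken from RefSeq on build GRCm38.p6 and read 5′ to 3′ on the gene's strand, with the longest run of C and T in capitals. Rps18, Rps28, Rps26, Rpl22l1, Rpl6 and Rplp0 are genes with a probe set that passed the test at day 115 against unirradiated hosts, and Rps6 and Rpl28 are shown beside them as 2 members that did not. These 8 were picked by hand, without a rule. Rpl10, Rpl21, Rpl30 and Rpl22, which also had a probe set that passed, are not shown.
Rps18, chr17:33955651-33955680, minus strand: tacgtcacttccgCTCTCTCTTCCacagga
Rps28, chr17:33824548-33824577, minus strand: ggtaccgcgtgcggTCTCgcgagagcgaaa
Rps26, chr10:128626492-128626521, minus strand: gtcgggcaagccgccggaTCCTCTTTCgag
Rps6, chr4:86857353-86857382, minus strand: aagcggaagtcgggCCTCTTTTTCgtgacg
Rpl22l1, chr3:28805493-28805522, plus strand: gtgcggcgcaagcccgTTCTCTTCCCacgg
Rpl6, chr5:121204486-121204515, plus strand: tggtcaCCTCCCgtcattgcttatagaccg
Rplp0, chr5:115559452-115559481, plus strand: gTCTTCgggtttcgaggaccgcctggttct
Rpl28, chr7:4792950-4792979, plus strand: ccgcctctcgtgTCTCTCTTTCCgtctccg
Rps18, Rps6 and Rpl28 carried a C at the annotated start followed by at least 4 pyrimidines, and the other 5 did not at this annotated base. Whether members that passed and members that did not differ in this motif was not tested, and these 8 examples cannot show it. Of the 61 gene names of the tested members, 49 had an entry in the table of starts. A C at the start followed by 4 pyrimidines was found in 8 of these 49 (16.3%), against 673 of 27025 annotated starts of all genes (2.49%). A run of at least 6 pyrimidines anywhere in the 30 bases, on the gene's strand, was found in 27 of the 49 (55.1%) and in 7860 of all starts (29.1%). The match depends on the exact base at which the annotation puts the start, and a missing match says nothing on how the gene is controlled.

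The arrays fell into 2 clusters that cut across the groups, when clustered on all probe sets other than the ribosomal protein ones. In array cluster 1 were arrays 1 to 3 of day 5, arrays 1 and 2 of day 40 and the 3 of day 115. In array cluster 2 were arrays 4 to 8 of day 5, arrays 3 and 4 of day 40 and the 4 from unirradiated hosts. Median correlations were 0.983 within a group and cluster, 0.927 between the clusters of 1 group and 0.976 between groups inside 1 cluster. Since day 115 and the unirradiated hosts share no cluster, each count of ribosomal proteins between groups is given on groups alone and with array cluster added as a term. Array medians lay between 49.6 and 53.7 signal units. Day-115 array 2 stood apart from the other day-115 arrays, with correlations of 0.948 and 0.938 to them against 0.973 between arrays 1 and 3. In that array 16 of 78 ribosomal protein probe sets lay over 1.5-fold from the mean of the other 2, among them Rpl5 at 3258 against 8456 and 7373. In day-115 arrays 1 and 3 the same count was 4 and 5 probe sets. Marker lists of CD8 T cells and of other cell types were summed in each array. The summed signal of 8 CD8 T cell markers was 10153 to 16272 at day 5, 9848 to 16277 at day 40, 12292 to 13997 at day 115 and 9458 to 11218 in unirradiated hosts. Summed B cell markers (10 probe sets) ranged over 2954 to 4786 at day 115, against 1165 to 1471 in unirradiated hosts, and 5 of 10 were called higher on groups alone, 1 of 10 with the cluster term. Summed plasma cell markers (6 probe sets) ranged over 1282 to 2177 at day 115 and 260.3 to 326 in unirradiated hosts, with 3 of 5 tested called higher in either fit. Summed liver markers (4 probe sets) ranged over 180.1 to 846 at day 115 and 139 to 165 in unirradiated hosts, with 3 of 3 tested called higher on groups alone and 1 of 3 with the cluster term. Summed erythroid markers (5 probe sets) ranged over 527 to 1313 at day 115 and 263 to 407 in unirradiated hosts, with 1 of 5 (Hba-a1, a globin) called higher on groups alone and 0 with the cluster term. At day 5 the B cell, plasma cell, liver and erythroid sums were 1411 to 3141, 302 to 487, 147 to 196 and 294 to 2591. At day 40 they were 1776 to 3583, 474 to 962.5, 151 to 186 and 431 to 1077. The highest erythroid sum thus lay at day 5, and the B cell sums of day 5 and day 40 overlapped those of day 115. Over the whole array 15.1% of probe sets were called higher at day 115 on groups alone, and 4.42% in either direction with the cluster term. The lowest signal of any marker in these 5 lists was 17.5, and none was at 0. The part of these other cells in the values of any group below was not tested.

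Of the 88 probe sets, 78 had a mean over all arrays above 26.4, the 30th percentile of all probe sets, and were tested. They covered 60 genes or gene pairs, with 32 probe sets for 23 genes of the small subunit and 46 for 37 of the large subunit. In the other 10 probe sets, Rpl15, Rpl39, Rps14, Rps15 and Rps20 had no tested probe set at all. Mean signals of the tested probe sets ranged from 26.8 to 8866, and 43 exceeded 1000. Signals of different probe sets depend on their probes and are not compared with each other. A probe set was called changed when the limma adjusted p, over 8695 tested probe sets of the whole array, was under 0.05, and differences are given as log2(signal + 16) ± standard error, which understates the change of dim probe sets.

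**Figure D1:**
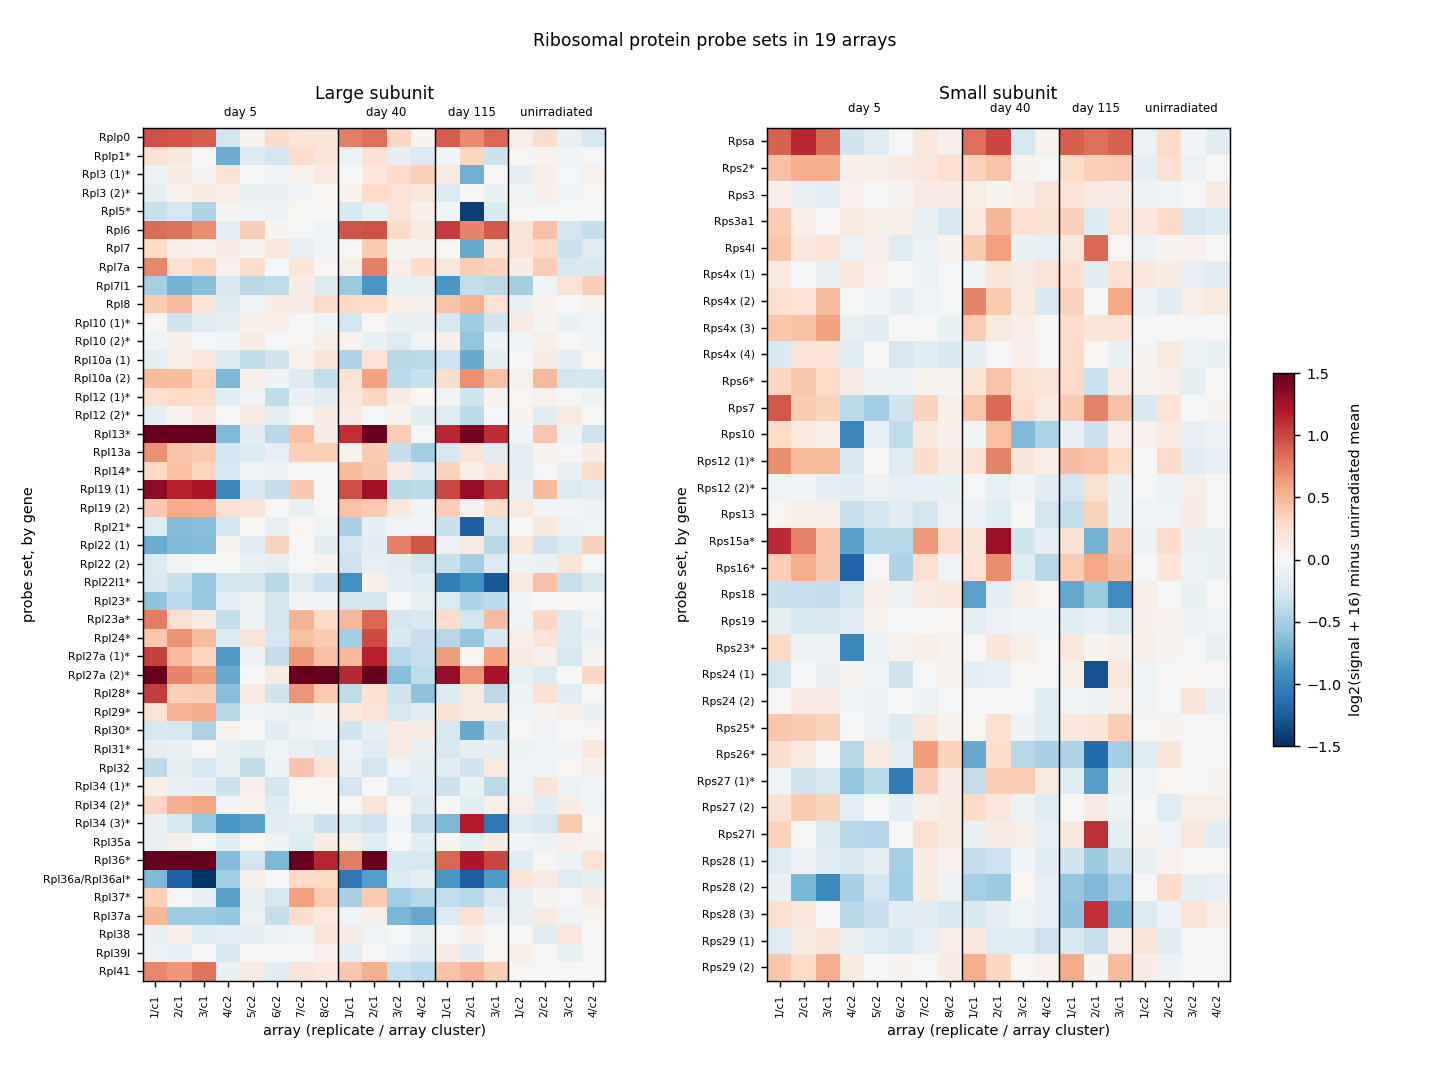
The 78 tested ribosomal protein probe sets (rows, large subunit left and small subunit right) in the 19 arrays (columns, labelled by replicate and array cluster c1 or c2), as log2(signal + 16) minus the mean of the unirradiated hosts, with red higher and blue lower. A star marks probe sets with several symbols, and numbers in brackets separate probe sets of 1 gene. Rows such as Rplp0, Rpl6, Rpl13, Rpl19 and Rpsa are red in the cluster 1 arrays of every irradiated group, and single cells stand out in day-115 array 2.

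At day 5, when the transferred cells were in irradiated hosts, no ribosomal protein probe set was called against unirradiated hosts. That was 0 of 78, beside 0.794% of all tested probe sets. At an unadjusted p under 0.05 the limma test gave 1 of 78 members (Rps2) against 13.5% of all probe sets. The median difference of the members was 0.0065 on the log2 scale, against 0.029 over all tested probe sets, and members ranged from -0.40 to 0.93. For 54 of the 78, the 95% interval of the difference lay within 1.5-fold in either direction, which held for 67.3% of all probe sets. The other 24 differences were not bounded so tightly. In these bulk samples, fewer cells of a type and less RNA per cell cannot be told apart. With the array cluster as a term the count was again 0 of 78, beside 1.61% of all, with 0 members at an unadjusted p under 0.05, a median of -0.048 and 65 intervals within 1.5-fold. Among the 5 day-5 and 4 unirradiated arrays of cluster 2 the count was 0 as well, beside 2.38% of all, with 5 members at an unadjusted p under 0.05.

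No small subunit member of the panel passed the test at day 5. Rps3, which sits at the mRNA entry of the small subunit, had signals of 6709.9 to 8094 with a median of 7666 in the 8 day-5 arrays, against 7030.4, 7149, 7427 and 8039 in unirradiated hosts. The groups overlapped, and the difference was 0.022 ± 0.087 (adjusted p = 0.914). Rps6, the ribosomal protein phosphorylated by S6 kinases downstream of mTOR, had 4144 to 5833 with a median of 4712 at day 5, against 4588, 4669, 4005 and 4455 in unirradiated hosts. Its difference was 0.13 ± 0.13 (adjusted p = 0.632), and its probe set also lists a pseudogene. Rps19, the gene most often mutated in Diamond-Blackfan anaemia in humans, had 3688 to 4608 with a median of 4194 at day 5, against 4690.2, 4607, 4191 and 4262 in unirradiated hosts, a difference of -0.092 ± 0.10 (adjusted p = 0.66). For Rps2, the single member under an unadjusted p of 0.05, the signals were 6633 to 9155 with a median of 7306 at day 5, against 5719, 7417, 5926 and 6244 in unirradiated hosts. Its difference was 0.28 ± 0.12 (adjusted p = 0.339). In day-5 arrays 1 to 3 Rps2 lay between 8524 and 9155, above the other 5 day-5 arrays. For all 4 proteins the day-5 and unirradiated arrays overlapped.

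Nor did any large subunit member of the panel. Rpl3, which lies next to the peptidyl transferase centre, had 4778 to 5873 with a median of 5251 at day 5, against 4619.7, 5399, 4953 and 5287 in unirradiated hosts, a difference of 0.053 ± 0.13 (adjusted p = 0.862). Rpl5, which carries 5S ribosomal RNA into the subunit and can bind Mdm2, had 6366 to 8918 with a median of 8269.5 at day 5, against 8805, 8544, 8645 and 8703 in unirradiated hosts, a difference of -0.14 ± 0.19 (adjusted p = 0.734). Rpl5 was lowest in day-5 arrays 1 to 3, which lay between 6366 and 7286. Rplp1, an acidic protein of the stalk that binds elongation factors, had 3615 to 7257 with a median of 6302 at day 5, against 6058, 6234, 5854 and 5873 in unirradiated hosts, a difference of -0.05 ± 0.17 (adjusted p = 0.898). For these 3 proteins too the day-5 and unirradiated arrays overlapped. Their probe sets also list a pseudogene or gene models, so none of these 3 signals can be assigned to 1 transcript. The members with the highest differences at day 5, named after their values were seen, were Rpl36 with 0.93 ± 0.57 (adjusted p = 0.465) and 1 probe set of Rpl27a with 0.92 ± 0.54 (adjusted p = 0.44). The day-5 signals of both were widely spread and split the day-5 arrays, as described below.

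At day 40 again no member was called against unirradiated hosts: 0 of 78, beside 1.5% of all tested probe sets. At an unadjusted p under 0.05 there were 3 of 78 (Rpl3, Rpl22 and Rpl6) against 15.3% of all. The median member difference was -0.0023 and the range -0.56 to 0.85. For 45 of 78 the 95% interval lay within 1.5-fold, against 59.6% of all probe sets. With the array cluster as a term 1 of 78 was called, beside 2.23% of all. This was Rpl22, named here because the count is small and after its values were seen. Rpl22 is a large subunit protein that mouse αβ T cells need for their development.

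The 2 probe sets of Rpl22 did not give the same picture. The brighter one had 96.7 to 223 with a median of 153 at day 5, 139.6, 151, 303 and 346 at day 40, 162, 191 and 126 at day 115, and 197, 136, 147 and 226 in unirradiated hosts. At day 40 the cluster 1 arrays lay at or below 151 and the cluster 2 arrays at or above 303, and the unirradiated arrays, all in cluster 2, lay between 136 and 226. Its difference at day 40 was 0.31 ± 0.28 (adjusted p = 0.608) on groups alone, 0.72 ± 0.17 (adjusted p = 0.0265) with the cluster term and 0.85 ± 0.19 (adjusted p = 0.0353) among cluster 2 arrays, where it was the 1 member called of 78, beside 3.07% of all. The dimmer one had 117 to 143 with a median of 134 at day 5, 108, 124, 122 and 109.95 at day 40, 106, 90.7 and 116 at day 115, and 129.6, 128, 159.9 and 135 in unirradiated hosts, and its difference at day 40 was -0.22 ± 0.10 (adjusted p = 0.309). One probe set was thus higher at day 40 within cluster 2, and the other did not pass and had a difference below 0.

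At day 115, 10 of 78 members were called against unirradiated hosts (12.8%), 2 higher and 8 lower. Across the whole array 27.9% of probe sets were called in this comparison, 15.1% higher and 12.8% lower. The members higher at day 115 were Rplp0 and Rpl6, and those lower were Rpl22l1, Rps18, Rps26, Rpl21, Rpl30, Rps28, Rpl10 and 1 probe set of Rpl22. The median over all 78 was -0.028, against 0.012 over all tested probe sets, and members ranged from -1.07 to 1.23. At an unadjusted p under 0.05 there were 22 of 78 (28.2%) against 40.7% of all. With the array cluster as a term 1 of 78 was called, Rpl22l1, beside 4.42% of all probe sets. In that fit the member median was -0.23 against -0.046 over all, and 12 of 78 lay above 0. Because no cluster holds both groups, that fit takes the cluster difference from the day-5 and day-40 arrays.

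Rpl22l1 is the paralogue of Rpl22, and its probe set also lists Orc5, a subunit of the origin recognition complex, and Gm15421, so its signal may be of any of these. The signals were 948 to 1248 with a median of 1142 at day 5, 745, 1499.6, 1279 and 1241 at day 40, 687, 744 and 577 at day 115, and 1551, 1926, 1111 and 1197 in unirradiated hosts. All 3 day-115 arrays lay below every unirradiated array and below every day-5 array. Day-40 array 1 lay near the day-115 values and the other 3 day-40 arrays among the unirradiated ones. The difference at day 115 was -1.07 ± 0.22 (adjusted p = 0.00339), and -0.93 ± 0.26 (adjusted p = 0.0464) with the cluster term. On groups alone the difference ranged from -1.18 to -0.92 when each of the 19 arrays in turn was left out. It was called each time. The fit with the cluster term was not repeated with arrays left out.

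Rps18, a small subunit protein of the head region, had 6022 to 8570.4 with a median of 6795 at day 5, 4405, 6967, 8270.5 and 7886 at day 40, 4531, 5239.9 and 4005 at day 115, and 8247, 7711, 7196 and 7699 in unirradiated hosts. The 3 day-115 arrays lay below all unirradiated and all day-5 arrays, and day-40 array 1 was as low as they were. The difference at day 115 was -0.75 ± 0.20 (adjusted p = 0.0111), and it was called whichever array was left out. With the cluster term it was -0.34 ± 0.18 (adjusted p = 0.282) and did not pass. Rps26, which lies at the mRNA exit of the small subunit, had 2579 to 5359 with a median of 3831 at day 5, 2055, 4178, 2582 and 2479 at day 40, 2513, 1557 and 2445 at day 115, and 3031, 3987, 3473 and 3479 in unirradiated hosts. Its probe set also lists a gene model, and its day-115 arrays lay below all unirradiated arrays, array 2 lowest. Its difference was -0.71 ± 0.25 (adjusted p = 0.0427), -0.80 ± 0.30 (adjusted p = 0.132) with the cluster term, and -0.49 (adjusted p = 0.189) without day-115 array 2.

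Rps28, a small protein near the mRNA exit, had 3 tested probe sets. The brightest had 6345 to 9798 with a median of 8071 at day 5, 6976, 7223, 8706 and 7901 at day 40, 7249.99, 6097 and 7082 at day 115, and 8346, 9355, 9053 and 9071 in unirradiated hosts, with the day-115 arrays below all unirradiated ones. Its difference was -0.40 ± 0.14 (adjusted p = 0.0412), and -0.32 (adjusted p = 0.134) without day-115 array 2. The other 2 probe sets of Rps28 gave -0.58 ± 0.22 (adjusted p = 0.0567) and -0.062 ± 0.29 (adjusted p = 0.894). Neither passed, and the dimmest of the 3 had a signal of 221 in day-115 array 2 against 57 and 53.1 in arrays 1 and 3.

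The other 4 probe sets lower at day 115 were of large subunit proteins. Rpl21 had 4809.7, 2596 and 5002 at day 115, against 6035, 6792, 5736 and 5805 in unirradiated hosts, a difference of -0.61 ± 0.22 (adjusted p = 0.0458). Rpl30, which in mammals also binds selenoprotein mRNAs, had 6684, 4737 and 6401 at day 115, against 8055, 7699, 8029 and 8148 in unirradiated hosts, a difference of -0.44 ± 0.15 (adjusted p = 0.0407). Rpl10, which joins the large subunit late in its assembly, had 5767, 4714 and 5551 at day 115, against 7454, 7049, 6369 and 6570.1 in unirradiated hosts, a difference of -0.36 ± 0.13 (adjusted p = 0.0452). In each of these 3 the probe set lists pseudogenes or gene models beside the named gene, all day-115 arrays lay below all unirradiated ones, and day-115 array 2 was the lowest array of the study. Without that array none of the 3 passed, with differences of -0.31, -0.29 and -0.27 and adjusted p of 0.268, 0.185 and 0.153. The dimmer Rpl22 probe set had -0.36 ± 0.11 (adjusted p = 0.0229), and -0.27 (adjusted p = 0.0978) without it. The brighter Rpl22 probe set had -0.12 ± 0.30 (adjusted p = 0.792).

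The 2 members higher at day 115 split by array cluster in the other irradiated groups too. Rplp0, the core of the stalk that recruits elongation factors, had 3882 to 9135 with a median of 5569 at day 5, 7916, 8290.05, 5806 and 4837 at day 40, 8817, 7647 and 8560.1 at day 115, and 5025, 5649, 4321 and 3935 in unirradiated hosts. Each cluster 1 array, whatever its day, lay at or above 7647, and each cluster 2 array, irradiated or not, lay at or below 5806. The difference at day 115 was 0.83 ± 0.27 (adjusted p = 0.0318), and 0.069 ± 0.18 (adjusted p = 0.847) with the cluster term. Rpl6 had 3308 to 6575 with a median of 4249.9 at day 5, 7055, 7086, 4521 and 4035 at day 40, 7573, 6075 and 6959 at day 115, and 4207, 4978, 3000.2 and 2854 in unirradiated hosts. Every cluster 1 array lay at or above 5928 and every cluster 2 array at or below 4978. Its difference was 0.90 ± 0.28 (adjusted p = 0.026), and 0.16 ± 0.21 (adjusted p = 0.684) with the cluster term. In both, the cluster 1 arrays of day 5 and day 40 lay with the day-115 arrays, and the cluster 2 arrays of those days with the unirradiated ones.

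**Figure D2:**
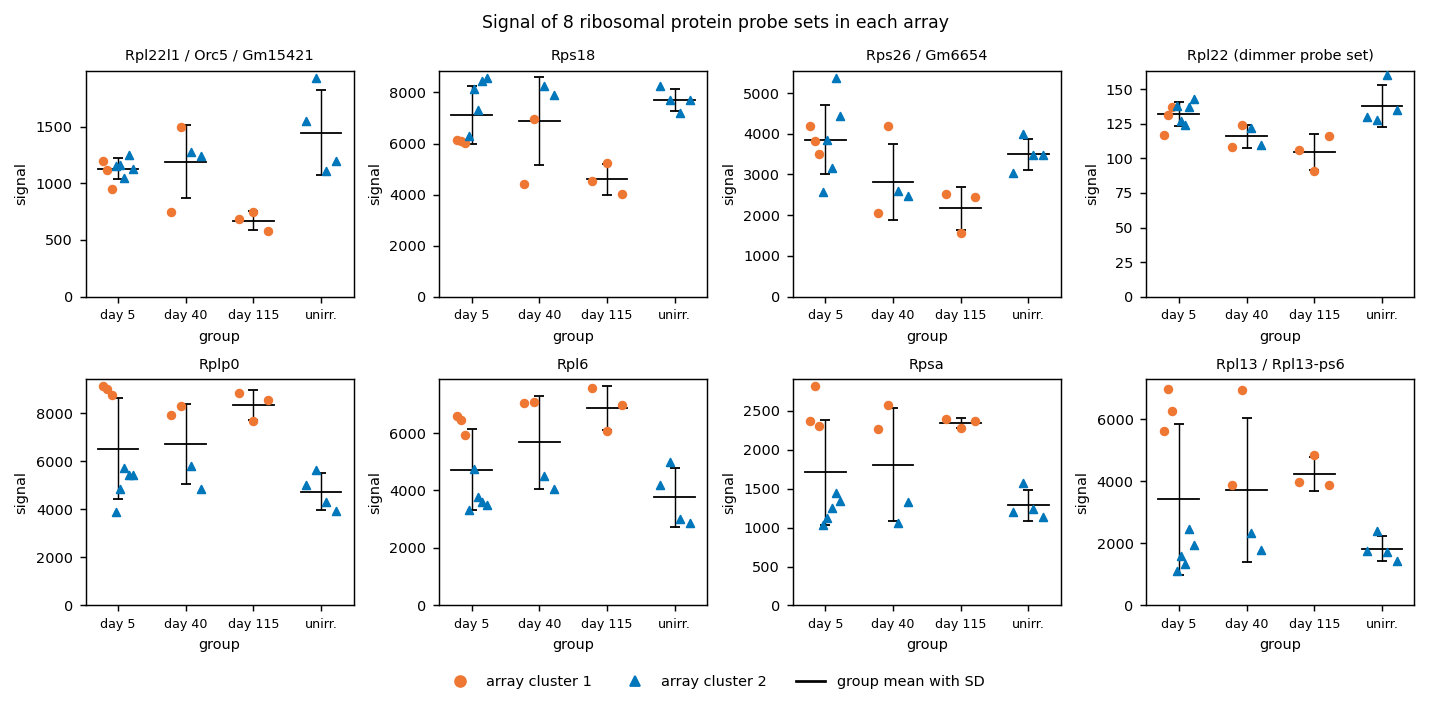
Signal of 8 ribosomal protein probe sets in each array (points), by group from day 5 to unirradiated hosts (unirr.), with array cluster 1 as orange circles, cluster 2 as blue triangles, and the group mean and SD in black. For Rplp0, Rpl6, Rpsa and Rpl13 the points separate by cluster inside the day-5 and day-40 groups, and for Rpl22l1 the 3 day-115 arrays, at 577 to 744, lie below all day-5 and unirradiated arrays of either cluster.

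The number called at day 115 changed with single arrays. It was 7 (2 higher, 5 lower) without day-115 array 2, 4 without day-115 array 3, and 6, 5, 2 and 3 without unirradiated arrays 1, 2, 3 and 4. Without 1 array in turn it ranged from 2 to 13. The shares of all probe sets called in these settings are not given here. These changes are therefore not read as particular to ribosomal proteins. Rpl22l1 and Rps18 were called in all 19 of these settings, and the other 8 members lost the call in 2 (Rpl22) to 12 (Rpl21) of them. Restricted to the 41 tested probe sets with exactly 1 symbol it was 5, namely Rplp0, Rpl6, Rps18, Rps28 and Rpl22.

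Between the irradiated groups few members were called, and these comparisons share arrays with those above. Day 40 against day 5 gave 0 of 78, beside 1.25% of all probe sets, with 4 members at an unadjusted p under 0.05 against 12.1% of all and a median of 0.023. Day 115 against day 40 gave 0 of 78, beside 0.092% of all, with 6 members at an unadjusted p under 0.05 against 13.5% of all and a median of 0.018. Without day-40 array 1, 2 members were called in that comparison, and the share over all probe sets in that setting is not given here. Day 115 against day 5 gave 0 higher and 4 lower of 78, beside 13.9% of all (8.23% higher, 5.62% lower), with a median of 0.021. The 4 were Rps26 with -0.83 ± 0.22 (adjusted p = 0.02), Rpl22l1 with -0.74 ± 0.20 (adjusted p = 0.0185), Rps18 with -0.62 ± 0.17 (adjusted p = 0.0241) and the dimmer Rpl22 probe set with -0.30 ± 0.10 (adjusted p = 0.0465). In all 4 the day-115 and day-5 arrays did not overlap, but the share of all probe sets without overlap is not given here. The gap was narrow in 2 of them. The highest day-115 and lowest day-5 signals were 116.36 and 116.64 for the dimmer Rpl22 probe set, and 2512.9 and 2579.2 for Rps26. The count was 1 without day-115 array 1 and 2 without day-115 array 3. The shares of all probe sets called in these settings are not given here, so this change is not read as particular to ribosomal proteins.

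With the cluster as a term, day 115 against day 5 gave 1 higher and 5 lower, beside 14.3% of all (7.23% higher, 7.1% lower), and a median of -0.12 against -0.038 over all. The lower ones were Rpl24 with -0.96 ± 0.25 (adjusted p = 0.0159), Rps26 with -0.88 ± 0.24 (adjusted p = 0.0223), Rpl22l1 with -0.65 ± 0.21 (adjusted p = 0.0413), Rpl13a with -0.61 ± 0.17 (adjusted p = 0.0265) and 1 probe set of Rpl34 with -0.44 ± 0.13 (adjusted p = 0.0304). The higher one was the brighter Rpl22 probe set with 0.65 ± 0.17 (adjusted p = 0.019). Of these, the probe sets of Rpl24, Rps26, Rpl22l1 and Rpl34 list further symbols. Among the cluster 1 arrays alone, 3 at day 115 against 3 at day 5, the count was 0, beside 1.28% of all, with 11 members at an unadjusted p under 0.05 and a median of -0.15 against -0.042 over all. Day 40 against day 5 with the cluster term gave 2 of 78, beside 7.48% of all: the brighter Rpl22 probe set with 0.66 ± 0.14 (adjusted p = 0.00658) and Rpl41, among the shortest proteins known, with -0.33 ± 0.086 (adjusted p = 0.0233). Within cluster 2 it gave 1 of 78, the brighter Rpl22 probe set, beside 5.66% of all, and within cluster 1 it gave 0, beside 0.0115% of all. Day 115 against day 40 with the cluster term gave 0 of 78, beside 0.196% of all, with 7 at an unadjusted p under 0.05 and a median of -0.13.

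**Figure D3:**
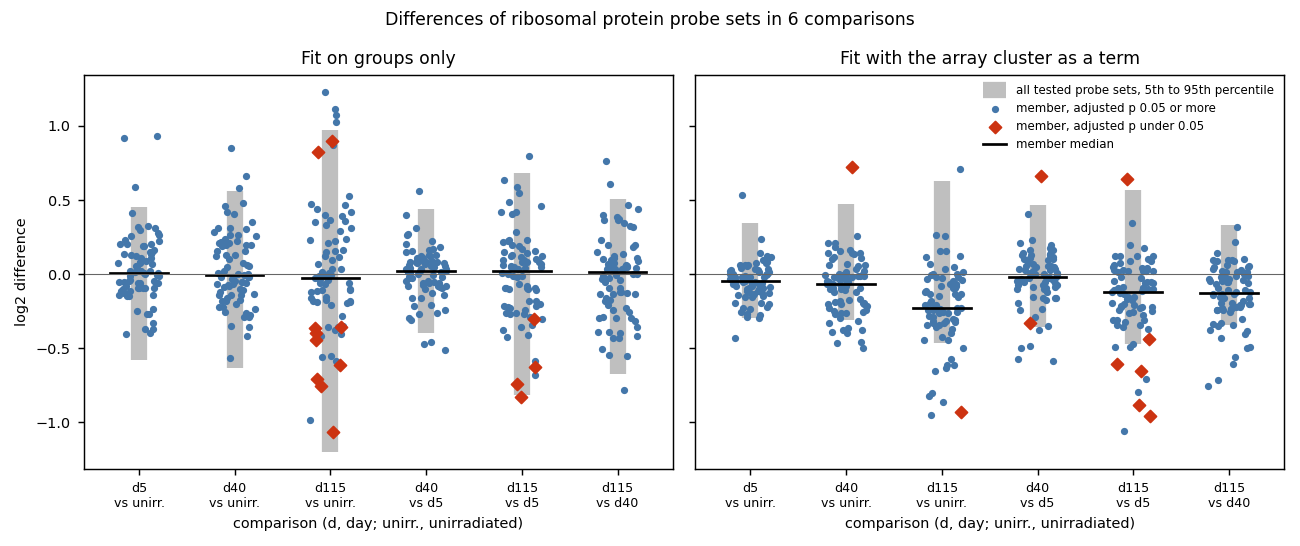
Log2 differences of the 78 tested ribosomal protein probe sets in the 6 comparisons, on groups only (left) and with a term for the array cluster (right). Blue points are members not past an adjusted p of 0.05, red diamonds are members past it, black lines are member medians and grey bars span the 5th to 95th percentile of all tested probe sets. The medians lie between -0.028 and 0.023 on the left, and at -0.23 for day 115 against unirradiated hosts on the right.

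The largest differences among ribosomal protein probe sets lay between the array clusters within the day-5 group. Of 78 members, 35 were called (44.9%), 27 higher and 8 lower in cluster 1 than in cluster 2, beside 50.8% of all tested probe sets, 31.1% higher and 19.7% lower. Small subunit members were 15 higher and 1 lower of 32, and large subunit members 12 higher and 7 lower of 46. The member median was 0.20, against 0.092 over all tested probe sets. Both clusters hold day-5 cells by their labels, which give no date or batch, and the source of the split was not tested. In this comparison 8 of 10 B cell markers, 5 of 6 tested neutrophil markers and 4 of 8 CD8 T cell markers were called higher in cluster 1, and the CD8 T cell marker Cd8a lower. The clusters were formed on all probe sets other than the ribosomal protein ones, so these marker counts and the share over all probe sets are descriptions of the split and no test of it. The members were left out of the clustering, but their adjusted p ran over the same probe sets and arrays. Their counts and adjusted p between the clusters therefore describe the split as well.

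Rpl13 differed most, by 1.93 ± 0.23 (adjusted p = 1.65e-04), with 5627, 6994 and 6266 in the cluster 1 arrays, against 1127, 1609, 1346, 2461 and 1937 in the cluster 2 arrays. Rpl36 followed with 1.85 ± 0.51 (adjusted p = 0.0133), and in cluster 2 it was 739 and 526 in arrays 7 and 8 and between 137 and 187 in arrays 4 to 6. Both probe sets list a pseudogene. Among probe sets with 1 symbol, Rpl19 was higher in cluster 1 by 1.47 ± 0.26 (adjusted p = 0.00125), Rpsa, the small subunit protein also described as a laminin receptor, by 1.00 ± 0.15 (adjusted p = 4.89e-04), Rplp0 by 0.84 ± 0.14 (adjusted p = 8.84e-04), Rpl6 by 0.75 ± 0.13 (adjusted p = 0.0015) and Rps7 by 0.71 ± 0.22 (adjusted p = 0.0232). Except for Rps7, no cluster 1 array of these overlapped a cluster 2 array. Lower in cluster 1 were the brighter Rpl22 probe set with -0.70 ± 0.12 (adjusted p = 0.00137), Rpl7l1, a factor of large subunit assembly, with -0.38 ± 0.12 (adjusted p = 0.0218), and Rps18 with -0.34 ± 0.12 (adjusted p = 0.0412). The probe set shared by Rpl36a and Rpl36al was lowest of all, with -1.15 ± 0.22 (adjusted p = 0.00229).

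Rpsa and Rpl19 also split by cluster at day 40. Rpsa had 2263 and 2572 in the day-40 arrays of cluster 1, against 1057 and 1335 in those of cluster 2. The brighter Rpl19 probe set had 4318 and 5276 in cluster 1, against 1640.2 and 1671 in cluster 2. Across members, no interaction of the day (40 against 5) with the cluster was called, 0 of 78 beside 0% of all, with 3 of 78 at an unadjusted p under 0.05 against 7.00% of all.

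Day-5 arrays also differed inside cluster 2. The signal of the dimmer Rpl27a probe set was 551 and 308 in arrays 7 and 8, and 42.7, 83 and 93.4 in arrays 4 to 6. Its range over the 8 day-5 arrays was 3.27 on the log2 scale, the widest of the tested members, followed by 2.96 for Rpl36, 2.62 for Rpl13 and 2.31 for Rpl19. Of 78 members, 23 (29.5%) spanned more than 1 on the log2 scale over the 8 day-5 arrays, against 25.3% of all tested probe sets. Over the 4 unirradiated arrays 0 of 78 did, against 2.09% of all. These counts come from different numbers of arrays and the day-5 group spans both clusters. Within groups the median SD of members was 0.24 at day 5, 0.21 at day 40, 0.19 at day 115 and 0.13 in unirradiated hosts, against 0.21, 0.19, 0.19 and 0.12 for all tested probe sets.

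Levels of the remaining panel members are given as mean ± SD over 8 day-5, 4 day-40, 3 day-115 and 4 unirradiated arrays. Rpsa had 1710.1 ± 678 at day 5, 1807 ± 725 at day 40, 2347 ± 62.4 at day 115 and 1285 ± 196 in unirradiated hosts. Rps4x, the X-linked form of its small subunit protein, had 5616 ± 386 at day 5, 6037 ± 489 at day 40, 6049.6 ± 966 at day 115 and 5568 ± 634 in unirradiated hosts in its brightest probe set. Rps29, a small zinc-binding protein of the small subunit, had 79.7 ± 11.4 at day 5, 74.8 ± 13.3 at day 40, 73.4 ± 14.5 at day 115 and 83.4 ± 10.9 in unirradiated hosts. None of these passed the test in any comparison between groups. Rps27l, a paralogue of Rps27 that p53 induces, had 131 ± 29 at day 5, 133 ± 13 at day 40, 189.8 ± 98.3 at day 115 and 133 ± 14.3 in unirradiated hosts, and day-115 array 2 stood at 302. Rpl7 had 4519 ± 392 at day 5, 4701 ± 609 at day 40, 3896 ± 1206 at day 115 and 4347 ± 879.8 in unirradiated hosts. Rpl13a, a large subunit protein, had 523 ± 127 at day 5, 422 ± 126 at day 40, 424 ± 72.7 at day 115 and 442 ± 33 in unirradiated hosts. Except for Rpl13a against day 5 with the cluster term, described above, no call was made for these either. Rpl38, needed in mice for translation of Hox mRNAs, had 41.1 ± 5.45 at day 5, 42.1 ± 3.8 at day 40, 44.2 ± 1.47 at day 115 and 43.1 ± 5.87 in unirradiated hosts. Rpl39l, a paralogue of Rpl39 known from testis, had 26.6 ± 2.68 at day 5, 25 ± 2.15 at day 40, 27.9 ± 4.47 at day 115 and 28 ± 2.67 in unirradiated hosts, close to the filter of 26.4. Neither of these dim probe sets passed in any comparison between groups. Rplp2, Rps27a, Rpl11 and Rpl26 of the panel had no member probe set and were not analysed here.

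Probe sets of 1 gene did not always move in the same direction. Among the 14 genes with more than 1 tested probe set, the probe sets had opposite signs in 10 genes for day 5, in 7 for day 40 and in 4 for day 115 against unirradiated hosts. The median gap between the highest and lowest difference of a gene was 0.21, 0.20 and 0.37 in these comparisons, while the median differences over all 78 members were 0.0065, -0.0023 and -0.028. The 2 probe sets of Rpl19, for example, had 1.11 ± 0.51 and 0.23 ± 0.16 at day 115, and neither was called.

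Genes of ribosome synthesis outside the ribosomal proteins were taken from 3 lists chosen with earlier results of these data known. Of 65 ribosome biogenesis genes listed, which make and process ribosomal RNA and assemble the subunits, 52 were tested. At day 5 against unirradiated hosts 0 were called, at day 40 1 was higher (Rrp1), and at day 115 17 were higher and 2 lower, with medians of 0.13, 0.26 and 0.37 against 0.029, 0.026 and 0.012 over all. Over the whole array 0.794% were called at day 5, 1.5% at day 40, and 15.1% higher and 12.8% lower at day 115. With the cluster term, 1 was higher at day 5 (Fbl), 3 at day 40 and 7 at day 115, with none lower and medians of 0.15, 0.20 and 0.28, beside 1.61%, 2.23% and 4.42% of all probe sets called in either direction. Rrp1, a factor of ribosomal RNA processing, was higher by 1.11 ± 0.25 (adjusted p = 0.0268) at day 40 and 1.11 ± 0.27 (adjusted p = 0.00728) at day 115. It was called in both fits, but on groups alone the day-40 call was lost without day-40 array 1 or 4 or any 1 unirradiated array, with differences of 0.90 to 1.16. Ppan, a factor of large subunit assembly, was higher by 1.20 ± 0.29 (adjusted p = 0.00707) at day 115, and Eif6, which keeps new large subunits from joining early, by 1.10 ± 0.29 (adjusted p = 0.011). Nip7, a factor of pre-ribosome processing, was lower, with -1.01 ± 0.31 (adjusted p = 0.0235). Eif6 lost the call without day-115 array 2 (0.84) and Nip7 without day-115 array 1 (-1.01), day-115 array 3 (-0.86) or unirradiated array 2 (-0.89). With the cluster term Ppan, Eif6 and Nip7 had 0.42, 0.45 and -0.25 and did not pass. With the cluster term Ncl (nucleolin) was higher by 0.98 ± 0.21 (adjusted p = 0.0123) at day 40 and 1.17 ± 0.26 (adjusted p = 0.0172) at day 115, Tsr1 by 1.07 ± 0.24 (adjusted p = 0.0216) and 1.22 ± 0.31 (adjusted p = 0.0304), and Polr1c, a subunit of RNA polymerases I and III, by 0.76 ± 0.19 (adjusted p = 0.0287) at day 115. On groups alone Ncl had 0.50 ± 0.34 (adjusted p = 0.487) at day 40 and 0.20 ± 0.36 (adjusted p = 0.712) at day 115, and Tsr1 0.52 ± 0.39 (adjusted p = 0.533) and 0.11 ± 0.42 (adjusted p = 0.873), so neither was called there. Polr1c was called at day 115 on groups alone too, with 0.74 ± 0.16 (adjusted p = 0.00431). Whether the biogenesis list differed from the ribosomal proteins was not tested.

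Other TOP mRNAs had 20 of 24 tested. At day 5 0 were called, at day 40 1 was higher, and at day 115 2 were higher and 4 lower, to be read against the same shares over the whole array. Eef2, the elongation factor that moves the ribosome along the mRNA, was higher by 0.88 ± 0.21 (adjusted p = 0.0397) at day 40, and with the cluster term by 0.93 ± 0.21 (adjusted p = 0.0241) at day 40 and 1.23 ± 0.27 (adjusted p = 0.0159) at day 115. On groups alone its day-40 call was lost without 9 of the 19 arrays in turn, among them each unirradiated array and day-40 arrays 1, 3 and 4, with differences of 0.79 to 0.98. At day 115 on groups alone Eef1d, an exchange factor of elongation, was higher by 1.65 ± 0.33 (adjusted p = 0.00267). Eef2 was the other of the 2 called higher there. Its difference was 0.94 to 1.31 when each of the 19 arrays in turn was left out, and no such setting lost the call. Gas5, a non-coding host of small nucleolar RNAs, was lower, with -1.87 ± 0.58 (adjusted p = 0.0246), Hnrnpa1, an RNA-binding protein, with -1.73 ± 0.48 (adjusted p = 0.014) and Eif3e, an initiation factor subunit, with -1.17 ± 0.38 (adjusted p = 0.0302). Eif3e was not called without day-115 array 2 (-0.55) or unirradiated array 1, 2 or 4 (-1.19 to -1.08), Gas5 not when day-115 array 2 (-1.75), day-115 array 3 or unirradiated array 4 was left out, and Hnrnpa1 not without day-115 array 3 (-1.59). With the cluster term Eef1d, Gas5, Hnrnpa1 and Eif3e had 1.08, -0.048, -0.46 and -0.92. None of these 4 passed in that fit, and Eef2 was the 1 call of this list at day 115.

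Regulators of ribosomal protein synthesis had 15 of 23 tested, with 0 called at day 5 and at day 40 and 2 higher and 3 lower at day 115, again beside 15.1% and 12.8% of all probe sets. The higher ones included Akt1, a kinase upstream of mTOR, with 1.15 ± 0.18 (adjusted p = 7.05e-04). Lower were Ddit4, an inhibitor of mTOR signalling, with -3.65 ± 0.84 (adjusted p = 0.00587), Max, the partner of Myc, with -2.21 ± 0.73 (adjusted p = 0.0314), and Sesn1, another inhibitor of mTOR signalling, with -1.32 ± 0.30 (adjusted p = 0.00559). The call of Max was lost without any 1 of the 3 day-115 and 4 unirradiated arrays, with differences of -2.42 to -2.04. With the cluster term Ddit4, Max and Sesn1 had -1.08, 0.076 and -0.65 and did not pass. With it no regulator was lower at day 115, and Larp1, the TOP-binding protein, was higher by 1.00 ± 0.21 (adjusted p = 0.0106) at day 40 and 0.97 ± 0.26 (adjusted p = 0.0411) at day 115, beside Akt1 with 0.77 ± 0.17 (adjusted p = 0.0173). On groups alone Larp1 had 0.83 ± 0.22 (adjusted p = 0.0706) at day 40 and 0.63 ± 0.24 (adjusted p = 0.0597) at day 115 and was not called. Within day 5, cluster 1 differed from cluster 2 by -2.63 in Ddit4 and by -2.51 in Max on the log2 scale. There 6 of the 15 regulators were called higher and 5 lower in cluster 1, beside 31.1% and 19.7% of all probe sets. The 5 lower include Pdk1, the symbol of a pyruvate dehydrogenase kinase. It stood on the list beside Pdpk1, a different kinase, and its place among regulators of ribosomal protein synthesis is doubtful. Myc, which drives transcription of ribosomal protein genes, was not called in any comparison against unirradiated hosts. Between the clusters within day 5 Myc was higher in cluster 1 by 0.84 ± 0.25 (adjusted p = 0.0194).

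**Figure D4:**
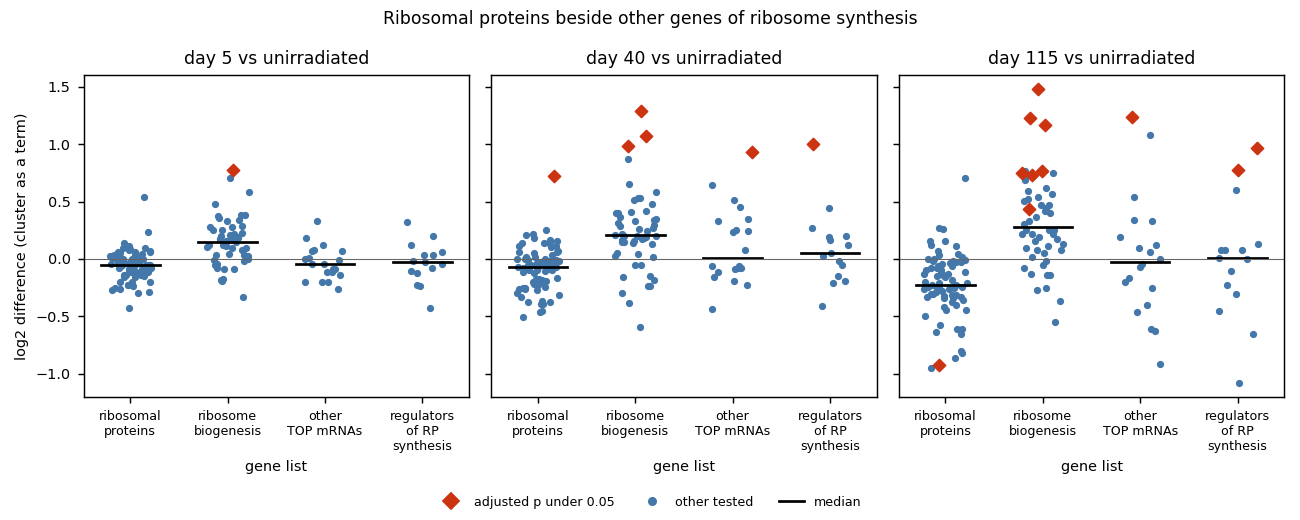
Log2 differences against unirradiated hosts at day 5, day 40 and day 115, with a term for the array cluster, for ribosomal protein probe sets and for the tested genes of 3 other lists (1 point per probe set or gene, RP for ribosomal protein, red past an adjusted p of 0.05, black line the median). At day 115 the ribosomal protein median is -0.23 and the ribosome biogenesis median 0.28.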

How the data were processed

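Gene expression in OT-I T cells was measured with 19 arrays of 1 platform. The deposited table holds 1 intensity per probe set and array, on a linear scale from 7.68 to 13242, with the method by which the authors made it from the scans not given in the sources used here. Array medians differed by at most 0.088 on the log2 scale, so the values were used as deposited, and the number of arrays limits the precision. Groups came from the sample titles and, for unirradiated hosts, the descriptions. Genes were named through the platform annotation.

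The 66 control probe sets were left out. Of 12422 others, the 8695 with a mean above the 30th percentile were fitted as log2(signal + 16) with limma 3.58.1 in R 4.3.3, in 1 model of 19 arrays, with a coefficient per group and an intensity trend in the variance. Benjamini-Hochberg adjustment ran over the whole tested array, with 0.05 as the threshold. The array clusters were compared in the 8 day-5 arrays, and the interaction of day and cluster in the day-5 and day-40 arrays. The code was tested on simulated data.

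The gene lists and the panel were chosen with earlier results of these data known, and the members by their symbols, with no measured value used. The text names, in each comparison, up to 10 genes higher and 10 lower past the threshold, represented by their brightest probe set with exactly 1 symbol (5 and 5 between the clusters), a panel of ribosomal proteins, and up to 4 genes a list. Members with several symbols were named where few were called, after their values were seen. Some panel members, such as Rpl3, Rpl5 and Rplp1, were given by a probe set with several symbols. Alternatives were pseudocounts of 1 and 64, no filter or the 50th percentile, quantile normalisation, the array cluster, the replicate number as a block, probe sets with 1 symbol only, and leaving out each array.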

Additional observations from a re-analysis of the deposited data

Results flagged for a closer look

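In the Rpl7 probe set, day-40 array 2 had a signal of 5612.9, against 4346 to 4454 in the other 3 day-40 arrays, a gap of 0.904 of the group's range. Among 81 groups of 4 to 10 arrays from 27 probe sets looked at, it was the 1 group with such a sample far from the others, and chance alone flags about 5% of groups.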

How the results depend on the processing

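The counts of called ribosomal protein probe sets and the member medians changed with the array cluster. With the cluster as a term the counts were 1 at day 40 and 1 at day 115 against unirradiated hosts and 2 for day 40 against day 5, and the medians were -0.23 for day 115 against unirradiated hosts, -0.12 for day 115 against day 5 and -0.13 for day 115 against day 40. Within cluster 2 the counts were 1 for day 40 against unirradiated hosts and 1 for day 40 against day 5. Within cluster 1, day 115 against day 5 gave 0 called and a median of -0.15, and day 115 against day 40 a median of -0.092. Without a filter, 5 members were called at day 115 against unirradiated hosts, with more probe sets tested. With 1-symbol members only, the counts were 5 for day 115 against unirradiated hosts, 2 for day 115 against day 5 and 19 between the clusters, fewer members being counted. Quantile normalisation gave 2 for day 115 against day 5. Leaving out 1 array in turn gave 2 to 13 for day 115 against unirradiated hosts, 1 to 5 for day 115 against day 5, 0 to 2 for day 115 against day 40 and 24 to 35 between the clusters. The shares of all probe sets called without a filter, after quantile normalisation and with arrays left out are not given here. Those counts are therefore not read as particular to ribosomal proteins. For Rpl22l1 and Rps18 against unirradiated hosts the call at day 115 held under pseudocounts of 1 and 64, both other filters, quantile normalisation and the replicate block, and with the cluster term it held for Rpl22l1 and not for Rps18.

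Of the genes outside the ribosomal proteins, 4 changed sign under some alternative, and the cause was not tested: Pdk1 for day 115 against day 5 (0.019 on groups alone, -0.054, -0.076 and -0.11 without day-5 arrays 1, 2 and 3, -0.10 without day-115 array 2, and 0.14 without day-115 array 3), Max at day 115 with the cluster term (0.076), Tsr1 at day 115 (-0.0013 to 0.24 over the arrays left out, lowest without day-115 array 1) and Fbl at day 5 with the replicate block (-0.25).

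Replicate numbers are shared by the groups, and the deviations of same-numbered samples from their group means correlated at -0.67 to 0.76, with 8 of 21 pairs over 0.1. In no comparison did all pairs exceed 0.1, so the number was not taken to pair samples. For day 40 against day 5, pairs 1, 2 and 4 (0.64, 0.62 and 0.76) each lay in 1 array cluster and pair 3 (-0.67) crossed the clusters. With the replicate number as a block, 8 members (6 higher, 2 lower) were called at day 5 against unirradiated hosts, 10.3% of members beside 19.6% of all probe sets, and 0 for day 115 against day 5 beside 2.28% of all, with a median of -0.10. Numbers 5 to 8 occur only at day 5, so in this fit day-5 arrays 5 to 8 do not bear on the comparison with unirradiated hosts. Day-5 arrays 1 to 3 lie in cluster 1 and all unirradiated arrays in cluster 2. Host and array cluster can therefore hardly be told apart there. The cause was not tested.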
